A study of Mus musculus with 2 samples.

Results

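The kinesin superfamily was followed through the embryonic mouse brain as 38 gene symbols among the 24411 gene rows of 2 libraries, 1 from the subventricular zone (SVZ) and 1 from the cortex. Members were chosen by name alone, as every symbol made of Kif, a number and any further letters or digits, with antisense and Riken-clone symbols left out. Of these, 37 are motors. The last, *Kif1bp*, encodes a protein that binds kinesins and is not a motor. Both areas were cut from fresh-frozen mouse brain at embryonic day 16.5 by laser capture microdissection (LCM), a technique that excises regions from a stained section under a microscope, and were profiled by bulk RNA-seq. The embryos came from timed matings. The labels name no genotype and no treatment for either library, and the sources used here do not give the strain or the number of embryos. In the study these libraries served as a benchmark for a light-directed spatial barcoding method, whose own libraries were not analysed here.

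Kinesins are motor proteins that use ATP to walk along microtubules or to take them apart. One set works in dividing cells, where it builds the spindle, moves chromosomes and completes cytokinesis. Another set carries vesicles, mitochondria and other cargo along axons and dendrites of neurons that no longer divide. Further members tune microtubule growth or serve the cilium. The SVZ is a germinal layer where neural progenitors divide, and the cortex is where the neurons they produce settle.

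Gene-assigned reads numbered 51435667 (SVZ) and 22050693 (cortex), which means that the SVZ was sequenced 2.33 times as deeply. Levels are given as CPM, the reads of a gene per 1000000 gene-assigned reads, and differences as the log2 of SVZ CPM over cortex CPM, called the log2 ratio, so that a positive value is higher in the SVZ. Levels are compared between single genes only per length, as RPKM, the CPM per kilobase of merged exons. With 1 library per area there was no replicate check, so no test and no p-value is given. Each ratio carries an exact 95% Clopper-Pearson interval of its read counts, which covers the counting error of reads only. Reads without molecular identifiers include PCR copies, so these intervals are too narrow for the error of counting molecules. The area labels were set against marker lists that were chosen with earlier results of these data known, so they are no independent check. All 7 apical progenitor markers averaging 1 CPM or more were higher in the SVZ. The 8 listed summed to 6350 CPM there against 129 CPM in the cortex, of which *Fabp7* alone gave 4973 CPM and 39.0 CPM. All 5 intermediate progenitor markers were higher in the SVZ too, at 986 CPM in sum against 51.2 CPM. All 10 neuronal markers were higher in the cortex, at 8550 CPM in sum against 1640 CPM in the SVZ, and *Nefl* was at 0 reads in the SVZ. In such bulk libraries fewer cells of a type and less RNA per cell cannot be told apart.

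The mitotic kinesins were the members that stood furthest toward the SVZ. Of the 12, 11 averaged 1 CPM or more over the 2 libraries, and all 11 were higher there, with log2 ratios from 2.94 to 9.37. The top value, of *Kif2c*, is set against a floor of 3 reads in the cortex. The median was 4.71 (counting interval of the middle gene, 4.34 to 5.11). The transport kinesins leaned modestly to the cortex, with a median of -0.60 over 12 genes, of which 9 were higher in the cortex and 3 in the SVZ, and 10 of the 12 lay within 2-fold. Over all 12738 genes that averaged 1 CPM or more the median log2 ratio was 0.11 and the lower quartile was -0.56. Of these 12738 genes, 5748 were higher in the cortex, and 64.4% of the 12738 lay within 2-fold. Where the mean over both libraries reached 10 CPM, 9 of 23 kinesins were at least 4-fold higher in the SVZ, against 6.75% of all 9027 genes, and these 9 were all mitotic. At least 4-fold higher in the cortex was 1 kinesin of the 23, *Kif26a*, against 4.70% of all genes. A minimum on the mean lets a gene in through 1 library alone. All of the 9 but *Kif20b* were under 10 CPM in the cortex, and *Kif26a* was under 10 CPM in the SVZ. They thus entered through the area where they were high, so these counts are a description and no independent support for a difference. The shares of all genes were counted by the same rule. The counting interval left out 0 for 22 of the 23 kinesins, close to the 89.3% of all genes for which it did so at this depth.

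**Figure D1:**
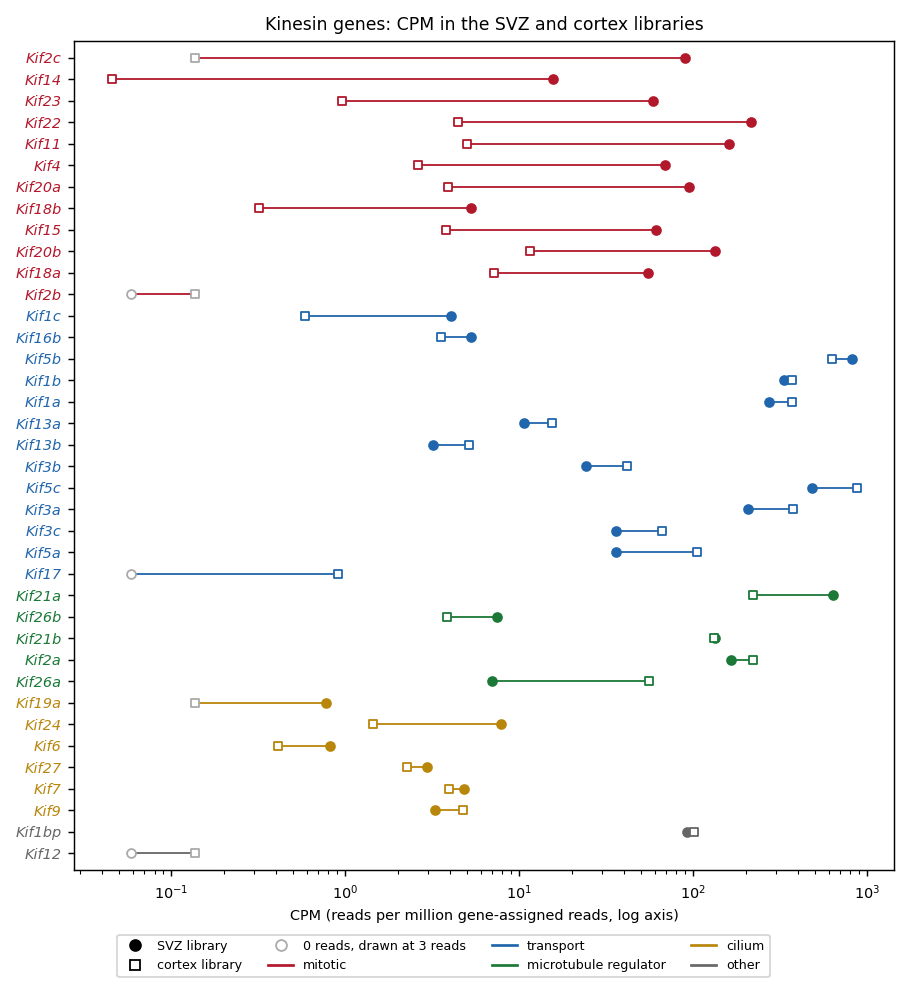
CPM on a log axis for the 38 kinesin symbols in the SVZ library (filled circles) and the cortex library (open squares), coloured by role, with 0 reads drawn in grey at 3 reads. The 11 mitotic genes averaging 1 CPM or more have long gaps with the SVZ on the right, from 5.25 to 214 CPM there and at most 11.5 CPM in the cortex, whereas the pairs of the transport genes with many reads sit close together.

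In all, the family took 4251 CPM in the SVZ and 3645 CPM in the cortex, a pooled log2 ratio of 0.22, so its summed level differed little while its make-up differed. Mitotic members held 22.5% of the family's reads in the SVZ (49187 of 218638 reads, exact interval 22.3% to 22.7%). In the cortex they held 1.09% (877 of 80385 reads, 1.02% to 1.17%). Per length the mitotic share was 26.2% in the SVZ and 1.14% in the cortex. Transport members held 52.6% of the reads in the SVZ and 78.4% in the cortex, or 47.8% and 77.4% per length.

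Most of the mitotic genes carried 1 or both of a pair of short motifs at their promoters, and the letters are shown here as a description. A link between these motifs and the ratios was not tested. The cell cycle genes homology region (CHR) is a short element at the start of many genes switched on before mitosis, where the DREAM and B-MYB complexes bind, and CCAAT is the box bound by NF-Y. Below are 180 bases around the RefSeq transcript start (GRCm38.p6), 150 before it and 30 from it on, written 5′ to 3′ along the gene, with CHR letters (TTTGAA or TTCGAA on either strand) and CCAAT boxes (CCAAT on either strand) in capitals. *Kif11*, *Kif22*, *Kif23* and *Kif20b* are mitotic genes with a CHR near the start, *Kif18a* is a mitotic gene with neither motif, and *Kif5c* is a transport gene for contrast. These 6 were picked after the values were seen.
*Kif11*, chr19:37376232-37376411, plus strand: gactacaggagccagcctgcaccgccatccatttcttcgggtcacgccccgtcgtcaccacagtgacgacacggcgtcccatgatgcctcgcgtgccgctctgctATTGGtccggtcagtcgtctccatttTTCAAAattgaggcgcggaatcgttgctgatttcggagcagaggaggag
*Kif22*, chr7:127042391-127042570, minus strand: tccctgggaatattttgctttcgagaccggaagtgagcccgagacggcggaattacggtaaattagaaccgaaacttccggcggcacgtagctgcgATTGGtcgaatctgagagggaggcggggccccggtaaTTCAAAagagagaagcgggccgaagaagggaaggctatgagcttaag
*Kif23*, chr9:61946770-61946949, minus strand: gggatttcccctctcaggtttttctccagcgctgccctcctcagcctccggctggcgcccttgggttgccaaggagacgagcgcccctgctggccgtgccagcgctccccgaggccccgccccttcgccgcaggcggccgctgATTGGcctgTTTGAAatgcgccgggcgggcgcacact
*Kif20b*, chr19:34922208-34922387, plus strand: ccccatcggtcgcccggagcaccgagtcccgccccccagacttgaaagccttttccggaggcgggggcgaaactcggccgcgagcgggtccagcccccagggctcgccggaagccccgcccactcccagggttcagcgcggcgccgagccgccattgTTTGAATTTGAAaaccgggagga
*Kif18a*, chr2:109280588-109280767, plus strand: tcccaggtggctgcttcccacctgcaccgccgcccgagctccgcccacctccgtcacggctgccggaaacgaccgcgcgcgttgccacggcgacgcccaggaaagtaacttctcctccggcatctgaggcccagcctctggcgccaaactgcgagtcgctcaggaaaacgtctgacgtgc
*Kif5c*, chr2:49619136-49619315, plus strand: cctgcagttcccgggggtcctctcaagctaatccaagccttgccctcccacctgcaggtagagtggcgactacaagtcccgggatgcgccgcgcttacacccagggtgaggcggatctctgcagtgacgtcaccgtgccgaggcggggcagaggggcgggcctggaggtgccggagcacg

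A RefSeq window of 300 bases, from 250 before to 50 after the start, was found for 31 of the 38 symbols and for 11 of the 12 mitotic ones, *Kif20a* being the one without. Some genes have more than 1 window. CHR letters were present in 9 of the 11 mitotic windows (81.8%), against 19.2% of all 32851 windows and 17.0% of the 20788 windows of genes in the count files. They were present in 1 of the 12 transport windows, a second start of *Kif1a*, in 1 of the 5 windows of microtubule regulators, that of *Kif26b*, and in 2 of the 6 cilium windows, those of *Kif24* and *Kif27*. CCAAT boxes were in 7 of the 11 mitotic windows and 4 of the 12 transport windows, against 37.4% of all windows. Both motifs stood together in 6 of the 11 mitotic windows, against 7.52% of all windows. The motifs nowhere overlapped each other in the 35 kinesin windows.

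The CHR letters of 7 mitotic genes began within 25 bases of the start, a span chosen after the positions were seen and one met by 2.90% of all windows, by 0 of the 12 transport windows, by 1 of the 5 windows of microtubule regulators (*Kif26b*, at -9) and by 0 of the 6 cilium windows, where the CHR of *Kif24* at -26 fell just outside. Counted from the first transcribed base as 0, those of the 7 mitotic genes began at -19 in *Kif11*, at -19 in *Kif15*, at -17 in *Kif22*, at 2 in *Kif23*, at 3 in *Kif18b*, at 7 and 13 in *Kif20b*, where the motif is doubled head to tail, and at 19 in *Kif4*. In *Kif11*, *Kif22*, *Kif23*, *Kif18b* and *Kif4* a CCAAT box lay upstream of that CHR, as the letters of *Kif11*, *Kif22* and *Kif23* above show. *Kif2c* and *Kif14* had a CHR further upstream, at -103 and -228, in windows whose RefSeq starts lie 3867 and 1505 bases downstream of their GENCODE gene starts. The pattern was not particular to motors, since 16 of 22 windows of other mitotic genes (72.7%) held a CHR. Of windows belonging to all genes past 4-fold in the SVZ other than the 38 kinesin symbols, 127 of 561 did (22.6%). That gene set includes mitotic partners, and *Cenpe* and *Kifc1*, kinesins outside the name rule. It is therefore not a set without mitotic genes. These are matches of letters, and binding was not measured.

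**Figure D2:**
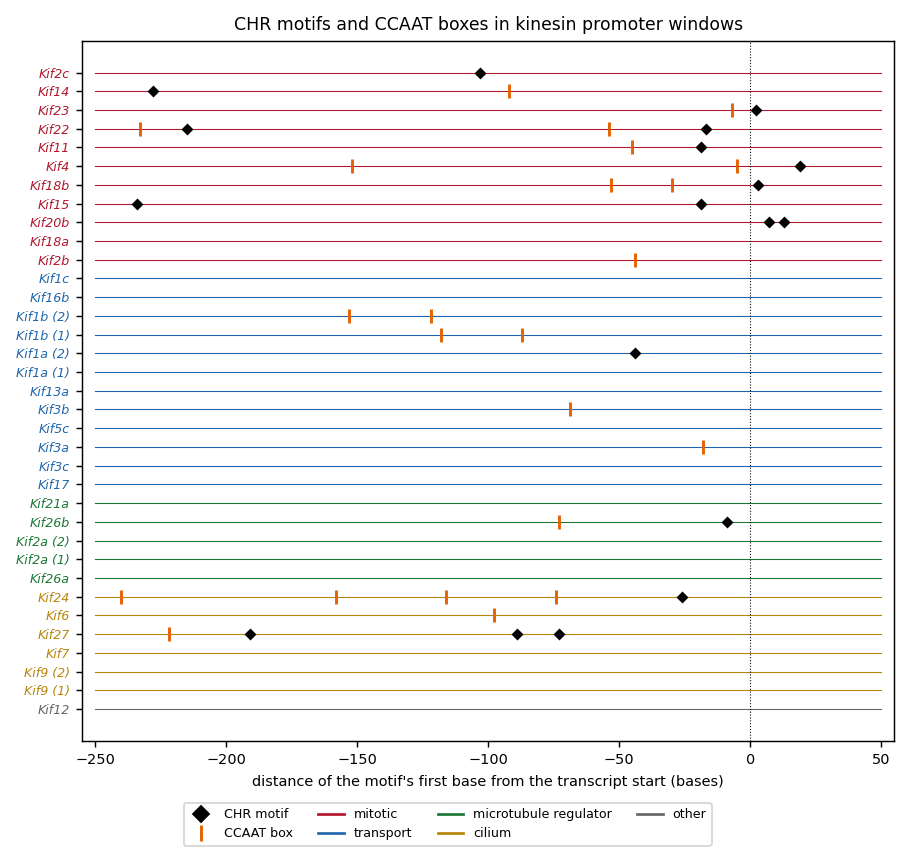
Positions of CHR motifs (black diamonds) and CCAAT boxes (orange bars) in the promoter windows of kinesin genes, in bases from the transcript start (dotted line), grouped by role and ordered within a role by the log2 ratio, with a number in brackets where a gene has more than 1 window. The diamonds crowd at the start in the mitotic rows, while the transport rows hold 1 diamond.

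The mitotic motors are described in the order of their work on the spindle. *Kif11* is the motor that pushes spindle poles apart, and *Kif15* can take over part of that task. *Kif11* (chr19:37376403-37421859, plus strand, GENCODE M21) had 8239 reads in the SVZ and 110 in the cortex, or 160 CPM against 4.99 CPM, a log2 ratio of 5.00 (4.73 to 5.29). *Kif15* (chr9:122951046-123018733, plus strand) had 3155 and 84 reads, or 61.3 CPM against 3.81 CPM, a log2 ratio of 4.01 (3.70 to 4.34). Both were thus well over 4-fold apart. The 2 intervals do not overlap, so that *Kif11* leaned further to the SVZ than *Kif15* beyond the counting error of reads.

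The chromosome-bound motors *Kif22* and *Kif4* push chromosome arms toward the middle of the spindle, and *Kif4* also shapes the midzone. *Kif22* (chr7:127027729-127042471, minus strand) was, per length, the highest mitotic motor in the SVZ, at 43.7 RPKM there and 0.91 RPKM in the cortex. Its 11021 and 98 reads, or 214 CPM against 4.44 CPM, gave a log2 ratio of 5.59 (5.30 to 5.89). *Kif4* on chromosome X had 3549 and 58 reads, or 69.0 CPM against 2.63 CPM, a log2 ratio of 4.71 (4.34 to 5.11). The exons of *Kif4* overlap those of *Pdzd11* on the other strand by 832 bases, and summing the deposited strand columns changed its counts by at most 1 read.

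*Kif2c* and *Kif2b* belong to the kinesin-13 group, which takes microtubules apart at their ends and frees wrongly attached chromosomes. *Kif2c* (chr4:117159639-117182639, minus strand) had 4623 reads in the SVZ, or 89.9 CPM, and 0 in the cortex. Against a floor of 3 reads in the cortex its SVZ level was 661-fold higher, a log2 ratio of 9.37. The exact counting interval reaches down to 9.07, so the value at the floor is not a strict bound. Of the 4459 genes at 50 CPM or more in the SVZ, 8 had 0 reads in the cortex, *Kif2c* among them. *Kif2b* had 0 reads in both libraries, where the floor of 3 reads stands for 0.058 CPM in the SVZ and 0.136 CPM in the cortex.

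The kinesin-8 motors *Kif18a* and *Kif18b* trim microtubule plus ends, and *Kif18a* damps chromosome movement at the metaphase plate. *Kif18a* had 2821 reads in the SVZ and 158 in the cortex, or 54.8 CPM against 7.17 CPM. Its log2 ratio of 2.94 (2.705 to 3.177) was the smallest of the mitotic set in the unstranded counts, although still 7.65-fold. *Kif18b* was scarce at 270 and 7 reads, or 5.25 CPM against 0.317 CPM, and its log2 ratio of 4.05 has a wide interval, 2.98 to 5.38.

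The motors of the midzone and of cytokinesis spanned the widest range. *Kif23*, which forms centralspindlin with *Racgap1*, had 3033 and 21 reads, or 59.0 CPM against 0.952 CPM, a log2 ratio of 5.95 (5.34 to 6.65). *Racgap1* itself had 11346 and 381 reads, for a log2 ratio of 3.67 (3.53 to 3.83), which does not overlap that of its partner and was looked up after the values were seen. *Kif14*, which binds the midzone protein *Prc1* and citron kinase, had 802 reads in the SVZ and 1 in the cortex. Its level was 15.6 CPM against 0.045 CPM, a 344-fold ratio whose log2 interval runs from 5.94 to 13.73. *Kif20b*, a motor of late cytokinesis, was per length the highest mitotic motor of the cortex, at 1.66 RPKM there and 19.1 RPKM in the SVZ. It had 6835 reads in the SVZ and 254 in the cortex, or 133 CPM against 11.5 CPM, a log2 ratio of 3.53 (3.35 to 3.71).

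*Kif20a*, which brings Aurora B to the midzone, had 4839 and 86 reads, or 94.1 CPM against 3.90 CPM, a log2 ratio of 4.59 (4.28 to 4.92). Its exons overlap those of *Cdc23* on the opposite strand by 1271 bases, and the libraries keep no strand, so reads in that stretch cannot be told apart and are left out of the unstranded count. When the deposited strand columns were summed, which takes those reads in, *Kif20a* had 9437 and 1207 reads, for a log2 ratio of 1.74, under 4-fold. The count of kinesins at least 4-fold higher in the SVZ was then 8 of 23. Exons of 14 of the 38 members overlap those of another gene. The summed strand columns differed from the unstranded count for 8 members, and by more than a few reads only for *Kif20a*, *Kif3c* and *Kif7* (272 and 94 reads).

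**Figure D3:**
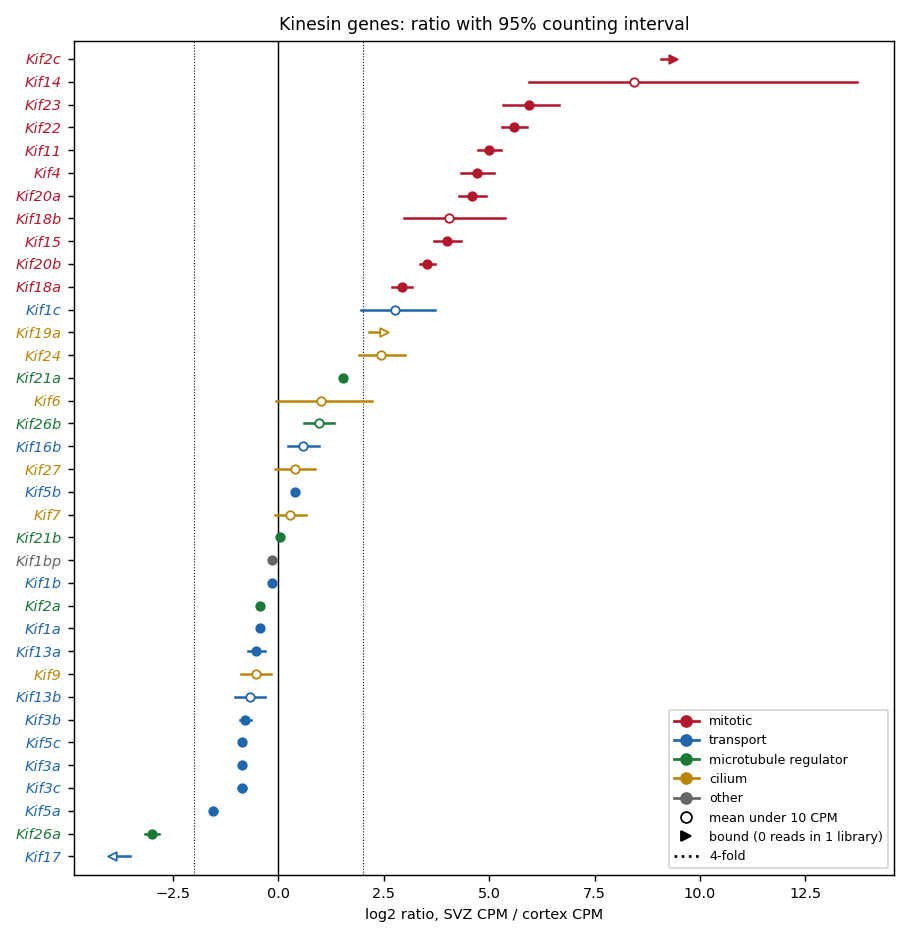
Log2 of SVZ CPM over cortex CPM for the 36 kinesin symbols with a ratio, sorted, with exact 95% counting intervals as bars, open markers for a mean under 10 CPM and triangles for bounds. The 11 red mitotic genes fill the top of the plot, above 2.9, and all blue transport genes but *Kif1c* lie under 0.6.

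Other genes of mitosis, from a list of spindle, checkpoint and cytokinesis partners, were set beside them. This list too was chosen with earlier results of these data known. All 23 were higher in the SVZ, 22 of the 22 that averaged 10 CPM or more by at least 4-fold, and their median log2 ratio was 5.43. The highest was the mitotic kinase *Plk1*, with 3929 and 18 reads (76.4 CPM against 0.816 CPM), a log2 ratio of 6.55 (5.89 to 7.30). The lowest was citron kinase, *Cit*, with 797 and 42 reads (15.5 CPM against 1.90 CPM), a log2 ratio of 3.02 (2.58 to 3.51). The kinetochore motor *Cenpe*, a kinesin whose symbol lies outside the name rule, had 9717 and 83 reads, for a log2 ratio of 5.65 (5.34 to 5.98).

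Regulators that act on the CHR and on G2/M promoters were less uniform. All 9 on the list were higher in the SVZ, with a median log2 ratio of 1.17, and 2 of the 7 that averaged 10 CPM or more were at least 4-fold apart. *Foxm1*, an activator of mitotic genes, was the highest, with 1068 reads in the SVZ and 3 in the cortex, a log2 ratio of 7.25 with an interval of 5.70 to 9.53. *Lin37*, a constant subunit of the DREAM complex, was the lowest, at 64.8 CPM against 44.0 CPM, a log2 ratio of 0.56 (0.45 to 0.66).

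**Figure D4:**
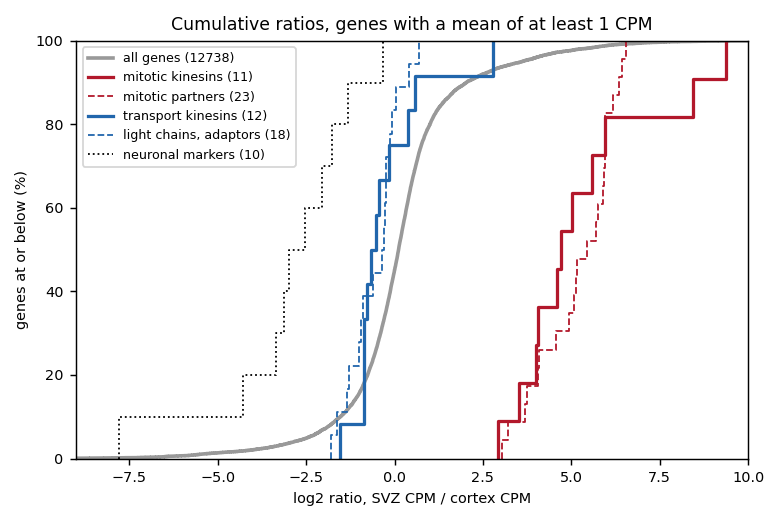
Cumulative share of genes (percent) at or below each log2 ratio (SVZ over cortex), for genes averaging 1 CPM or more, with the number of genes in brackets. The curves of the mitotic kinesins and of their partners lie wholly right of 2.9, those of the transport kinesins and adaptors lie for most of their length left of the curve of all genes, and the curve of the neuronal markers lies left of the transport curve.

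Among the transport motors, the heavy chains of kinesin-1, the conventional kinesin of axons, differed from each other in direction. *Kif5b*, the form made in most tissues, had 42107 reads in the SVZ and 13858 in the cortex, or 819 CPM against 628 CPM, a log2 ratio of 0.38 (0.35 to 0.41). *Kif5c* (chr2:49619298-49774778, plus strand), a form enriched in neurons, had 24793 and 19296 reads, or 482 CPM against 875 CPM, a log2 ratio of -0.86 (-0.89 to -0.83). *Kif5a*, also neuronal, had 1841 and 2304 reads, or 35.8 CPM against 104 CPM, a log2 ratio of -1.55 (-1.63 to -1.46), that is 2.92-fold higher in the cortex. The 3 intervals do not overlap, and only *Kif5b* was higher in the SVZ.

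Per length, *Kif5b* made up 58.6% of the 3 heavy chains in the SVZ and 36.4% in the cortex. *Kif5c* made up 38.5% in the SVZ and 56.7% in the cortex, and *Kif5a* 2.92% and 6.91%. There were thus 0.658 *Kif5c* per *Kif5b* in the SVZ (0.648 to 0.668) and 1.56 in the cortex (1.52 to 1.59), so that the leading heavy chain was not the same in the 2 areas. Among all kinesins per length, *Kif5b* ranked 1 in the SVZ at 103 RPKM, and *Kif5c* ranked 1 in the cortex at 123 RPKM. The neuronal markers named above were higher in the cortex in the same direction as *Kif5c* and *Kif5a*, and their part in these shares was not tested.

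**Figure D5:**
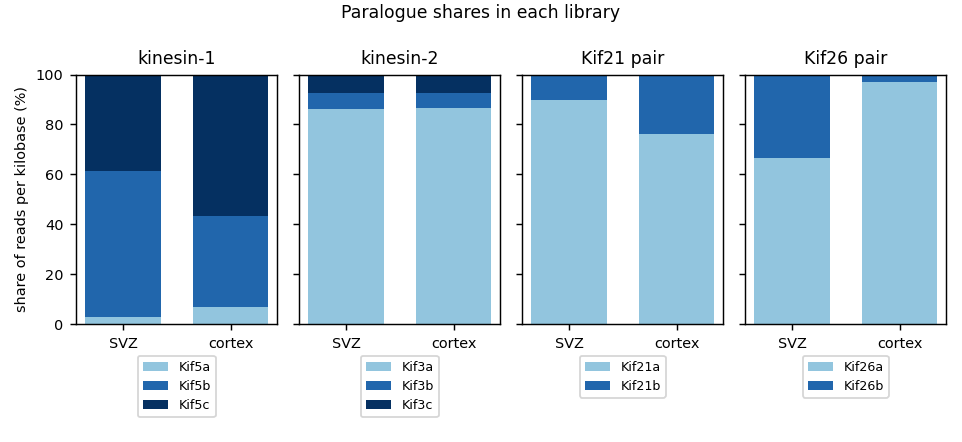
Share of reads per kilobase (percent, bars from 0) of each paralogue within 4 kinesin groups in the SVZ and cortex libraries. *Kif5b* is the largest block of kinesin-1 in the SVZ and *Kif5c* in the cortex, the kinesin-2 blocks are nearly equal in both, and *Kif26b* shrinks from 33.5% in the SVZ to 3.15% in the cortex.

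Kinesin-2, which carries cargo in neurons and builds cilia as a trimer of *Kif3a* with *Kif3b* or *Kif3c* and an accessory chain, differed little in its make-up. *Kif3a* had 10665 reads in the SVZ and 8310 in the cortex (207 CPM against 377 CPM), a log2 ratio of -0.86 (-0.90 to -0.82). *Kif3b* had 1247 and 921 reads (24.2 CPM against 41.8 CPM) and a log2 ratio of -0.78 (-0.91 to -0.66). *Kif3c* had 1861 and 1459 reads (36.2 CPM against 66.2 CPM) and a log2 ratio of -0.87 (-0.97 to -0.77). The 3 intervals overlap, and *Kif3a* made up 86.3% of the group per length in the SVZ and 86.5% in the cortex. *Kif3c* exons overlap genes on the other strand by 3205 bases, and its summed strand columns held 3263 and 2582 reads in place of the counts above. The unstranded counts leave out reads of that stretch, while its length stays in the values per length. The share of *Kif3c* can therefore be too low, and that of *Kif3a* too high, in both areas.

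Of the kinesin-3 motors of the Kif1 group, *Kif1a* and *Kif1b* were near even or modestly higher in the cortex, and *Kif1c* was higher in the SVZ. *Kif1a*, the carrier of synaptic vesicle precursors, had 14034 reads in the SVZ and 8158 in the cortex (273 CPM against 370.0 CPM), a log2 ratio of -0.44 (-0.48 to -0.40). *Kif1b*, which carries mitochondria and vesicle precursors, had 17159 and 8154 reads (334 CPM against 369.8 CPM) and a log2 ratio of -0.15 (-0.19 to -0.11). Per length there were 1.54 *Kif1a* per *Kif1b* in the SVZ and 1.89 in the cortex. *Kif1c*, a vesicle motor found widely, was the one transport gene that stood well over to the SVZ, although on few reads, 207 and 13 (4.02 CPM against 0.59 CPM), a log2 ratio of 2.77 (1.97 to 3.70).

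The endosome and vesicle motors *Kif13a*, *Kif13b* and *Kif16b* were scarce. *Kif13a* had 549 reads in the SVZ and 340 in the cortex, a log2 ratio of -0.53 (-0.73 to -0.33). *Kif13b* had 165 and 113 reads, a log2 ratio of -0.68 (-1.03 to -0.32). *Kif16b*, which moves early endosomes, had 273 and 78 reads and leaned the other way, with a log2 ratio of 0.59 (0.22 to 0.97). *Kif17*, a dendritic carrier of NMDA receptor subunits, had 0 reads in the SVZ and 20 in the cortex (0.907 CPM). Against a floor of 3 reads in the SVZ that is 15.6-fold higher in the cortex, a log2 ratio of -3.96, and the counting interval reaches up to -3.53. The value at the floor depends on depth, and with the SVZ thinned to the cortex total it was -2.74.

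The light chains and adaptors that couple these motors to cargo resembled the transport motors. Of 18 averaging 1 CPM or more, 15 were higher in the cortex and 3 in the SVZ, 14 lay within 2-fold, 0 of 16 were at least 4-fold apart, and the median log2 ratio was -0.32. The highest was the light chain *Klc4*, at 41.1 CPM in the SVZ and 25.3 CPM in the cortex, a log2 ratio of 0.70 (0.57 to 0.84). The lowest was the scaffold *Mapk8ip2*, at 17.6 CPM and 61.0 CPM, a log2 ratio of -1.80 (-1.92 to -1.68). Further chains that bind the motors above were picked after the values were seen. The light chain *Klc1* had a log2 ratio of -1.34 (-1.38 to -1.31), and the light chain *Klc2* had -0.89 (-1.14 to -0.64). The kinesin-2 accessory chain *Kifap3* had a log2 ratio of -1.63 (-1.68 to -1.59). *Kifap3* was thus further to the cortex than *Kif3a*, *Kif3b* and *Kif3c*, with no overlap of the intervals.

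The microtubule regulators held the second most abundant kinesin of the SVZ. *Kif21a*, which slows microtubule growth, had 32686 reads in the SVZ and 4873 in the cortex, or 635 CPM against 221 CPM, a log2 ratio of 1.52 (1.48 to 1.57). Per length it ranked 2 among kinesins in the SVZ at 98.1 RPKM and 6 in the cortex at 34.1 RPKM. Its paralogue *Kif21b* had 6866 and 2891 reads, or 133 CPM against 131 CPM, and its log2 ratio of 0.03 (-0.04 to 0.09) was not distinguishable from 0 at this depth. Of the pair, *Kif21a* made up 90.0% per length in the SVZ and 76.0% in the cortex. *Kif2a*, a kinesin-13 that prunes neurites and also works at spindle poles, was not split in the way of *Kif2c*, with 8469 and 4882 reads, 165 CPM against 221 CPM, and a log2 ratio of -0.43 (-0.48 to -0.38).

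*Kif26a* and *Kif26b* are members of a divergent group whose motor domain lacks normal ATPase activity and which act in signalling. *Kif26a* (chr12:112146208-112181747, plus strand) had 359 reads in the SVZ and 1229 in the cortex, or 6.98 CPM against 55.7 CPM. It was 7.99-fold higher in the cortex, a log2 ratio of -3.00 (-3.17 to -2.83). *Kif26b* had 385 and 85 reads, or 7.49 CPM against 3.85 CPM, a log2 ratio of 0.96 (0.62 to 1.31). The paralogues were thus on opposite sides, and per length there were 1.98 *Kif26a* per *Kif26b* in the SVZ (1.71 to 2.29) and 30.7 in the cortex (24.6 to 38.7).

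Kinesins of the cilium were scarce in both libraries. *Kif24*, which holds back cilium assembly at the centriole, had 404 reads in the SVZ and 32 in the cortex (7.85 CPM against 1.45 CPM), a log2 ratio of 2.44 (1.92 to 3.00). *Kif19a*, which sets the length of motile cilia, had 40 reads in the SVZ and 0 in the cortex, 5.72-fold higher against a floor of 3 reads. That is a log2 ratio of 2.52, and the counting interval reaches down to 2.15. *Kif9* had 169 and 105 reads, for a log2 ratio of -0.54 (-0.90 to -0.17). For *Kif7*, which acts at the cilium tip in hedgehog signalling, for *Kif27* and for *Kif6*, with 246 and 87, 152 and 50, and 42 and 9 reads, the interval held 0 and a difference was not detectable at this depth. Markers of multiciliated cells summed to 19.1 CPM in the SVZ and 29.6 CPM in the cortex over 8 genes, with *Ccno* at 0 in both. Choroid plexus markers summed to 246 CPM in the SVZ and 0.907 CPM in the cortex over 6 genes, of which *Ttr* alone gave 240 CPM and 0.726 CPM. In this list *Kl* was at 0 in both, and *Folr1*, *Clic6* and *Kcne2* were at 0 in the cortex. The part of both marker lists in the values of *Kif19a* and *Kif24* was not tested.

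Of the remaining symbols, *Kif1bp* had 4732 reads in the SVZ and 2241 in the cortex, a log2 ratio of -0.14 (-0.22 to -0.07), and *Kif12* had 0 reads in both. The minus-end motors named Kifc lie outside the name rule and did not share a direction. *Kifc1*, a spindle motor, had 952 and 36 reads, for a log2 ratio of 3.50 (3.02 to 4.03), and its near-identical copy *Kifc5b* had 243 and 33 reads, for a log2 ratio of 1.66 (1.13 to 2.23). Reads that fit both copies are not counted, so both values are uncertain. *Kifc2* had 86 and 65 reads, for a log2 ratio of -0.82 (-1.30 to -0.33), and *Kifc3* had 55 and 202 reads, for a log2 ratio of -3.10 (-3.56 to -2.66).

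Markers of other cells that an excised area can hold are given beside these results. Microglial markers summed to 36.0 CPM in the SVZ and 4.26 CPM in the cortex over 5 genes, all higher in the SVZ. Endothelial markers summed to 64.4 CPM in the SVZ and 55.6 CPM in the cortex over 5 genes. Of these, 2 were higher in the SVZ and 3 in the cortex, with a median log2 ratio of -0.45. Erythroid markers summed to 20.1 CPM and 10.6 CPM over 6 genes, with the 4 globin genes at 0 in both. The part of these marker lists in the kinesin values was not tested.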

How the data were processed

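Areas of the SVZ and the cortex of mouse brain at embryonic day 16.5 were excised by LCM and sequenced as 1 RNA library each. The authors removed adapters with cutadapt 4.1, mapped read 1 to mm10 with STAR 2.7.9a, and deposited whole read counts per gene, not normalized, with no strand and per strand. Reads that map to several places or overlap more than 1 gene are left out of STAR gene counts. A further deposited table with merged counts, CPM, a fold and its log10 was not used.

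The unstranded counts were scaled to the gene-assigned total (59.0% of reads in the SVZ and 59.1% in the cortex). The log2 ratio had no pseudocount. A 0 was raised to a floor of 3 reads, and its ratio is a value at that floor, which the counting interval can pass. Genes with 3 reads or fewer in both libraries got no ratio. Lists and roles were counted from a mean of 1 CPM, and calls of 4-fold at 10 CPM. The rule that picks members by name and the gene lists were set with earlier results of these data known. All members are named, and from each pathway list the highest and lowest gene averaging 1 CPM or more. Marker lists are given as counts and sums. Other genes named were picked after their values were seen, as said there. Exon lengths and overlaps came from GENCODE M21, which need not be the annotation the authors used, and promoter windows from RefSeq on GRCm38.p6. Alternatives were scaling by edgeR 4.0.16 (TMM, upper quartile) and DESeq2 1.42.0 size factors, other totals, minimums and folds, the strand columns, thinning and a pseudocount. R 4.3.3, matplotlib 3.10.9, scipy 1.17.1, numpy 2.4.6, pandas 2.3.3 and Python 3.11.15 were used. The scripts were tested on simulated data.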

Additional observations from a re-analysis of the deposited data

How the results depend on the processing

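With 1 library per area neither replicate could be left out, and the intervals cover the counting error of reads only. No paired analysis was possible because there is a single library per area and no result comes from a test. Scaling by TMM, upper quartile or DESeq2 size factors moved the median of all genes by -0.09, -0.10 and -0.09 on the log2 scale and left 9 kinesins at least 4-fold higher in the SVZ and 1 in the cortex. With no expression minimum these counts were 14 and 2 of 36. In the cortex direction the count was 2 at 2-fold and 0 at 10-fold, where in the SVZ direction it was 10 and 8. The median log2 ratio of the mitotic kinesins was 4.27 with a pseudocount of 1 CPM, which by its construction shrinks genes with few cortex reads. Without length correction the shares of *Kif5a*, *Kif5b* and *Kif5c* were 2.68%, 61.3% and 36.1% in the SVZ and 6.50%, 39.1% and 54.4% in the cortex, so the order within each area held. Of 252 recomputed ratios of single members, 207 stayed within the counting interval and 45 moved out of it. The sign changed only for *Kif21b*, in 5 settings, down to -0.07. *Kif17*, *Kif19a* and *Kif2c* each had 0 reads in 1 library, so their ratios rest on the floor of 3 reads. With a pseudocount of 1 CPM their log2 ratios were -0.93, 0.83 and 6.51.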

Other observations

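Dynein, the motor that walks toward the opposite end of the microtubule from most kinesins, was set beside them through a list of 20 dynein and dynactin genes. Their median log2 ratio (SVZ over cortex) was -0.15, 17 of the 20 lay within 2-fold, and the ends of the list stood far out on either side. The intermediate chain *Dync1i1* had 189 reads in the SVZ and 21081 in the cortex, or 3.67 CPM against 956 CPM, a log2 ratio of -8.02 (-8.24 to -7.82). The other intermediate chain, *Dync1i2*, had 19579 and 9906 reads, or 381 CPM against 449 CPM, a log2 ratio of -0.24 (-0.27 to -0.20). The dynein regulator *Nde1*, known for its part in the division of neural progenitors, had 9411 and 117 reads, or 183 CPM against 5.31 CPM, a log2 ratio of 5.11 (4.85 to 5.38). Its paralogue *Ndel1* had 2292 and 1433 reads, for a log2 ratio of -0.54 (-0.64 to -0.45). *Dync1i2* and *Ndel1* were named after the values were seen, and each differed from its paralogue by more than the counting intervals.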
